A study of Homo sapiens with 2 samples.

Results

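Isolated peaks of histone H3 lysine 27 acetylation (H3K27ac) were examined in LOUCY, an established human T-ALL line (T-cell acute lymphoblastic leukaemia) that serves as a model of immature disease. The members were chosen by position alone: an autosomal peak was isolated when the nearest peak on either side of it, on the same chromosome, lay more than 100000 bp away. The first and last peak of each chromosome were not eligible. Of 50693 autosomal peaks, in a list of 52203, the rule took 1345, or 2.65% (95% Wilson interval 2.52 to 2.80), and left 49348 for comparison. The list came from 1 H3K27ac library, with 54357332 tags kept by the peak caller, set against 1 library of input DNA, with 71932640. The labels name no treatment or genetic change of the cells. There was no replicate, so intervals cover counting error only. They treat peaks as independent, although neighbouring peaks share a gap, so those of isolated shares may be too narrow. No difference between groups of peaks was tested, and the values hold for these libraries of 1 cell line.

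H3K27ac is written by acetyltransferases of the CBP family and marks active promoters and enhancers. Where many enhancers serve 1 gene, acetylated sites crowd into clusters, and these clusters are known from genes of cell identity. Single sites in otherwise unmarked sequence lie at the other end of that range. Chromosome bands that stain dark with Giemsa are AT-rich, gene-poor and late to replicate, while negative bands hold most genes. The rule used the distances between peaks of the same list, and a wide peak shortens the gaps beside it. Width and fold enrichment come from the same calls, so their values are given as descriptions.

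Gene positions on hg19 were at hand for 406 autosomal genes only, and among these 4 isolated peaks reached within 1 kb of a start site. The strongest was at MZT2B, which encodes a small component of the gamma-tubulin complex, and the others were at CCDC102B, a centrosome linker gene, MAPK9, which encodes the stress kinase JNK2, and OPN3, a non-visual opsin gene. Their promoters are printed to show the kind of sequence before these start sites. They come from another build than the peaks, and their overlap with the peak intervals was not checked. Each is the 250 bases before the furthest 5′ start of the gene, 5′ to 3′ on the strand of the gene, from RefSeq on GRCh38.p14, with every CpG in capitals.
MZT2B: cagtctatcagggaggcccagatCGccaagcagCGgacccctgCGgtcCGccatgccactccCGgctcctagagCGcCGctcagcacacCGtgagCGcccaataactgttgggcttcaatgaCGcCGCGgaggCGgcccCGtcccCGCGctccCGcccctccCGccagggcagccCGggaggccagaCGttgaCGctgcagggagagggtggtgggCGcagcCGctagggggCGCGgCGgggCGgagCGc
CCDC102B: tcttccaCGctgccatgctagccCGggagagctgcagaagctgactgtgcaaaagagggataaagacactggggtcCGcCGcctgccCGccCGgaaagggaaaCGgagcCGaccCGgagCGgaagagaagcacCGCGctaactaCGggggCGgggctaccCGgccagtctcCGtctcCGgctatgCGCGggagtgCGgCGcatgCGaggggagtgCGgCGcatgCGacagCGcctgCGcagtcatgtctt
MAPK9: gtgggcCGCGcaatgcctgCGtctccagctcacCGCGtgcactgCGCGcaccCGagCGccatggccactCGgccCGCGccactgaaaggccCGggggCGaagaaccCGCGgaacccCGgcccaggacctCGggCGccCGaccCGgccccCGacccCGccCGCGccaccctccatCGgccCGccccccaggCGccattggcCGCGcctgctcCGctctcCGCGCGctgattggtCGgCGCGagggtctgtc
OPN3: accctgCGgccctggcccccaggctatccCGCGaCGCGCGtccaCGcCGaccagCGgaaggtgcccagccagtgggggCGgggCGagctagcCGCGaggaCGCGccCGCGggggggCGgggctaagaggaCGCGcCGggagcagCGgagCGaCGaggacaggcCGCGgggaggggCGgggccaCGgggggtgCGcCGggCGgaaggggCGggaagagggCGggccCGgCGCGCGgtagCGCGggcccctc
All 4 promoters were rich in CpG, with 28 in MZT2B, 27 in CCDC102B, 37 in MAPK9 and 39 in OPN3, against a median of 10 (quartiles 3 and 23) over 27305 promoters of the same length. These counts exceeded those of 84.6%, 82.9%, 96.1% and 97.5% of promoters, respectively. The comparison is with all promoters, with or without a peak, and promoters at remaining peaks were not compared. The GC box GGGCGG, which itself holds a CpG, was found on either strand 6 times in OPN3 and 2 times in each of the others, and 42.2% of all promoters held it. The sequence CCAAT was found 2 times in MAPK9 and 1 time in MZT2B (33.0% of promoters), and the ETS core CCGGAA 1 time in CCDC102B (14.8%). TATAAA was found in none of the 4 and in 11.2% of promoters. These matches are descriptions of letters in a window and not of bound sites.

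The peak at MZT2B (chr2:130938106-130941761, band 2q21.1) was 3656 bp wide, with a fold of 12.5 over input and rank 710 among autosomal peaks. It stood 303 kb from its left and 157 kb from its right neighbour, and it spanned the start site at 130939835 of the plus strand. The peak at CCDC102B (chr18:66380772-66383798, 18q22.1) was 3027 bp wide with a fold of 7.10. The next peak on its right was 1112 kb away, beyond the end of the gene, which spans 340 kb. The peak at MAPK9 (chr5:179718063-179720578, 5q35.3) was 2516 bp wide with a fold of 5.22, and that at OPN3 (chr1:241802369-241804173, 1q43) was 1805 bp wide with a fold of 3.95.

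A further 8 isolated peaks lay inside genes of the set away from a start site, and all 8 were intronic in the transcripts listed. They were 0.595% (0.302 to 1.17) of isolated peaks, near the 0.665% (0.597 to 0.740) of remaining peaks in such a place. Those in NELL2, a secreted neuronal glycoprotein gene (12q12, fold 4.30, 2027 bp), and NFIA, a nuclear factor I transcription factor gene (1p31.3, fold 4.87, 1976 bp), were the strongest. The 6 others were weak, with folds of 2.57 or less, in APP (amyloid precursor protein), DOCK9, HABP2 (a plasma serine protease), KCNT2 (a potassium channel), MAGI2 (a synaptic scaffold protein) and SGCE (a sarcoglycan). NFIA held 5 peaks in all and MAGI2, with a span of 1437 kb, held 2. The start site of NFIA, 172 kb from the isolated peak and beyond its left gap of 145 kb, had no peak. In the other genes the start lay within the gap beside the peak. The rule requires only 100 kb of such a gap, and the starts of APP, KCNT2 and MAGI2 were 262, 300 and 460 kb away. Isolated peaks were at a start site of the set in 0.297% of cases (Wilson interval 0.116 to 0.762), against 0.440% (0.385 to 0.502) of the remaining peaks, and these intervals overlapped. Of the 222 genes with a peak at a start site, 1.80% had an isolated one.

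In fold enrichment the medians of the groups were close, and isolated peaks held larger shares in the middle of the range and smaller ones from 2 to 2.5 and at 10 or more. Their median fold was 3.17 (95% interval 3.04 to 3.30; quartiles 2.52 and 5.26), against 3.07 (3.05 to 3.09; quartiles 2.42 and 5.69) for the remaining peaks. Of the isolated peaks, 23.0% (20.8 to 25.3) had a fold from 2 to 2.5, against 29.2% (28.8 to 29.6) of the remaining ones. From 2.5 to 3 the shares were 22.1% (19.9 to 24.4) and 18.6% (18.3 to 18.9), and from 4 to 6 they were 16.4% (14.5 to 18.5) and 14.1% (13.8 to 14.4). A fold of at least 6 was reached by 275 isolated peaks, or 20.4% (18.4 to 22.7), where 23.1% of all autosomal peaks reached it. A fold of at least 10 was reached by 37, or 2.75% (2.002 to 3.77), where the share over all autosomal peaks was 5.18%. No isolated peak had a fold of 15 or more, while 169 remaining peaks did, or 0.342% (0.295 to 0.398). The highest fold of an isolated peak was 13.9 and that of a remaining peak 26.6. The order of the medians depended on the weak peaks: when only peaks with a -log10 q of at least 5 were kept and gaps were measured anew, the median fold was 5.34 for isolated and 5.79 for remaining peaks, and with peaks of fold 4 or more it was 6.48 and 6.82.

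The caller's own confidence was close in both groups. The median -log10 q was 4.93 (4.41 to 5.61) for isolated and 4.77 (4.68 to 4.87) for remaining peaks. A -log10 q of at least 10 was found for 467 isolated peaks, 34.7% (32.2 to 37.3), beside 36.7% of all autosomal peaks. Below a -log10 q of 5 were 50.3% (47.6 to 52.9) of isolated and 51.0% (50.6 to 51.5) of remaining peaks.

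Width separated the groups more than fold did. The median isolated peak was 1380 bp wide (1297 to 1454; quartiles 735 and 2327) and the median remaining peak 1679 bp (1659 to 1702; quartiles 793 and 3356), a ratio of 0.822. Wide peaks were scarce among the isolated: 5 of 1345, or 0.372% (0.159 to 0.867), were 10000 bp or wider, where the share over all autosomal peaks was 4.38%. A width of 20000 bp or more was found for 0.0743% of isolated peaks (1 peak; interval 0.0131 to 0.420) and 1.01% (0.927 to 1.10) of remaining ones. Narrow peaks were more frequent, with 17.0% (15.04 to 19.1) of isolated and 13.9% (13.6 to 14.2) of remaining peaks below 500 bp. With 2.65% of the peaks, the isolated ones held 1.68% of the autosomal sequence under peaks.

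**Figure D1:**
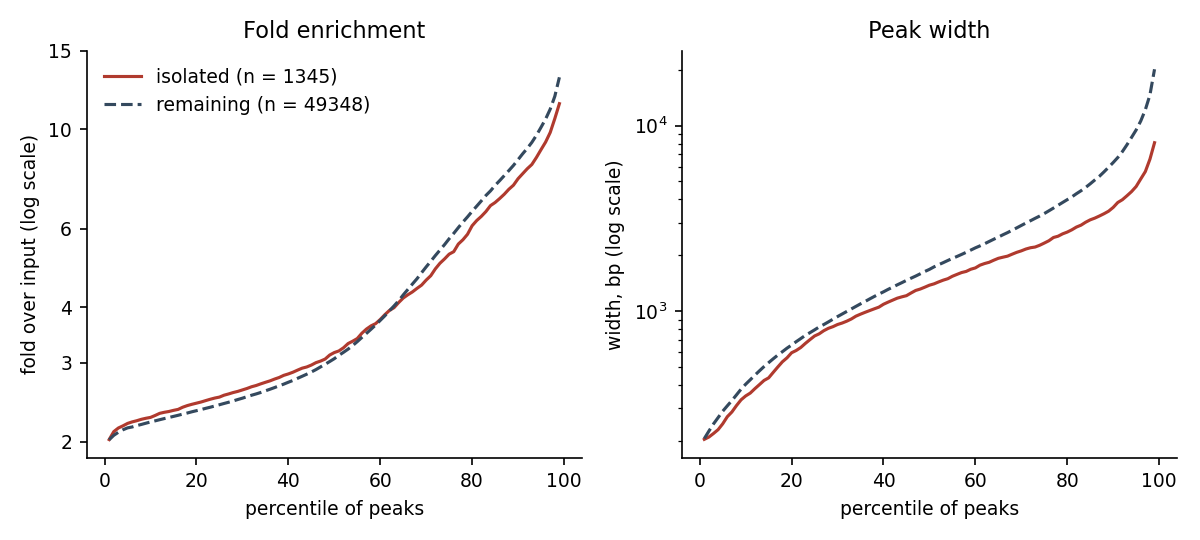
Fold enrichment over input (left) and peak width in bp (right), both on log axes, at each percentile from 1 to 99 of the 1345 isolated peaks (solid) and the 49348 remaining autosomal peaks (dashed). The fold curves, with medians of 3.17 and 3.07, cross above percentile 62, while the width curve of the isolated peaks runs below the other and the distance grows towards the upper end.

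The difference in width was found at like fold, and in bp it grew with fold. From a fold of 2 to 2.5 the medians were 653 bp (597 to 739) for isolated and 709 bp (699 to 719) for remaining peaks, a difference within the first interval. From 3 to 4 they were 1492 bp (1378 to 1661) and 1919.5 bp (1885 to 1950). From 6 to 10 they were 2543 bp (2259 to 2717) and 3972 bp (3893 to 4051), a ratio of 0.640, and at 10 or more 3289 bp (3038 to 3716) and 4783 bp (4608 to 4961), a ratio of 0.688. Below a fold of 2 there were only 11 isolated peaks, with a median of 601 bp against 574 bp. The median input level at the peaks, worked out from fold and p-value, was lower at isolated peaks in each bin from a fold of 2 upwards, for example 6.72 against 7.31 from 4 to 6 and 7.26 against 7.80 from 6 to 10. Below a fold of 2 it was 10.5 against 8.62. The part of the input level in the widths was not tested.

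Strong isolated peaks fell in a narrow range of widths. Among the 275 with a fold of at least 6 the median was 2661 bp, the quartiles were 1971 and 3496 bp, and 88.4% were below 5000 bp. The 11432 remaining peaks of that strength had a median of 4157.5 bp, quartiles of 2678 and 7246 bp, and 59.4% below 5000 bp. A width of 10000 bp or more was reached by 4 of these isolated peaks (1.45%) and by 15.4% of the remaining ones. Across peaks, which are not replicates, the rank correlation of width and fold was 0.699 in the isolated and 0.743 in the remaining group at all folds. At a fold of 6 or more it was weak in both, with 0.254 and 0.140.

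**Figure D2:**
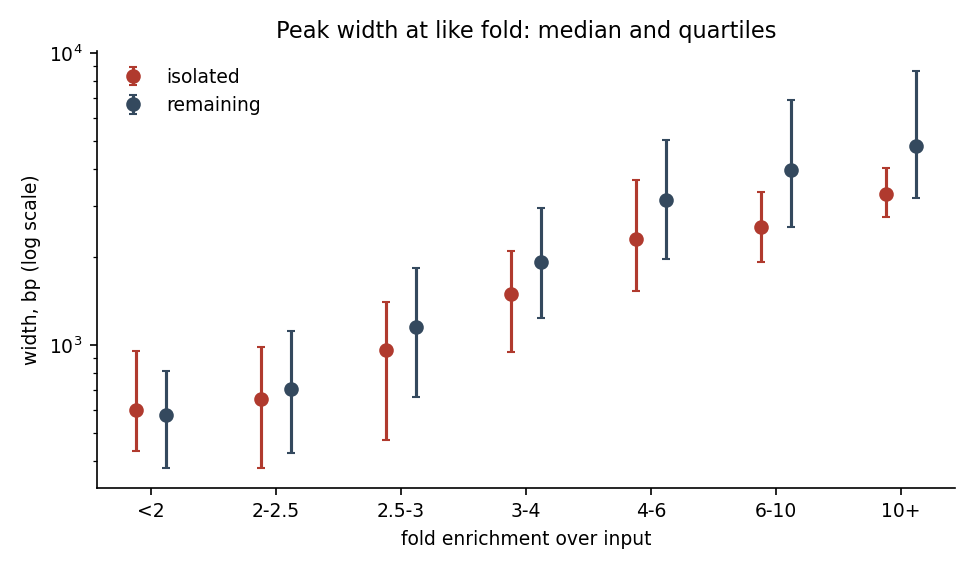
Peak width in bp (log axis) by bins of fold enrichment over input, with points at the median and bars from the first to the third quartile, for isolated and remaining autosomal peaks. From a fold of 2 upwards the isolated median lies below the other in each bin, and the upper quartile of isolated peaks of fold 6 to 10 (3352 bp) lies below the median of the remaining ones (3972 bp).

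The width of strong peaks declined over the shorter gaps and was level beyond the threshold. For peaks of fold 6 or more, the median width was 7332 bp where the smaller flanking gap was at most 1 kb, 4730 bp from 2 to 5 kb, 3011 bp from 20 to 50 kb and 2842 bp from 50 to 90 kb. In the 7 bins above 100 kb it ran from 2588.5 to 3148.5 bp, the last from 4 peaks. Just outside the threshold, the 226 peaks with a smaller gap of 90 to 100 kb had a median width of 1485.5 bp (1331 to 1690) and a median fold of 3.26 (2.90 to 3.61). Just inside it, the 164 with a gap of 100 to 110 kb had 1608 bp (1380 to 1844) and 3.09 (2.90 to 4.34), so the values on either side of the threshold overlapped. The last peak outside was chr7:98475772-98478494 (7q22.1, smaller gap 99.912 kb, 2723 bp, fold 10.7), and the first inside was chr4:100635586-100637802 (4q23, 100.029 kb, 2217 bp, fold 4.27). Median fold took another course: it was 2.86 at gaps up to 1 kb, highest at 20 to 50 kb with 3.45 (3.36 to 3.52), and between 2.997 and 3.34 in the bins above 100 kb. The 7186 peaks with a long gap on 1 side only had a median width of 1562 bp and a median fold of 3.26. Their width lay between that of the isolated peaks and the 1708 bp of the 42162 peaks with no long gap on either side.

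**Figure D3:**
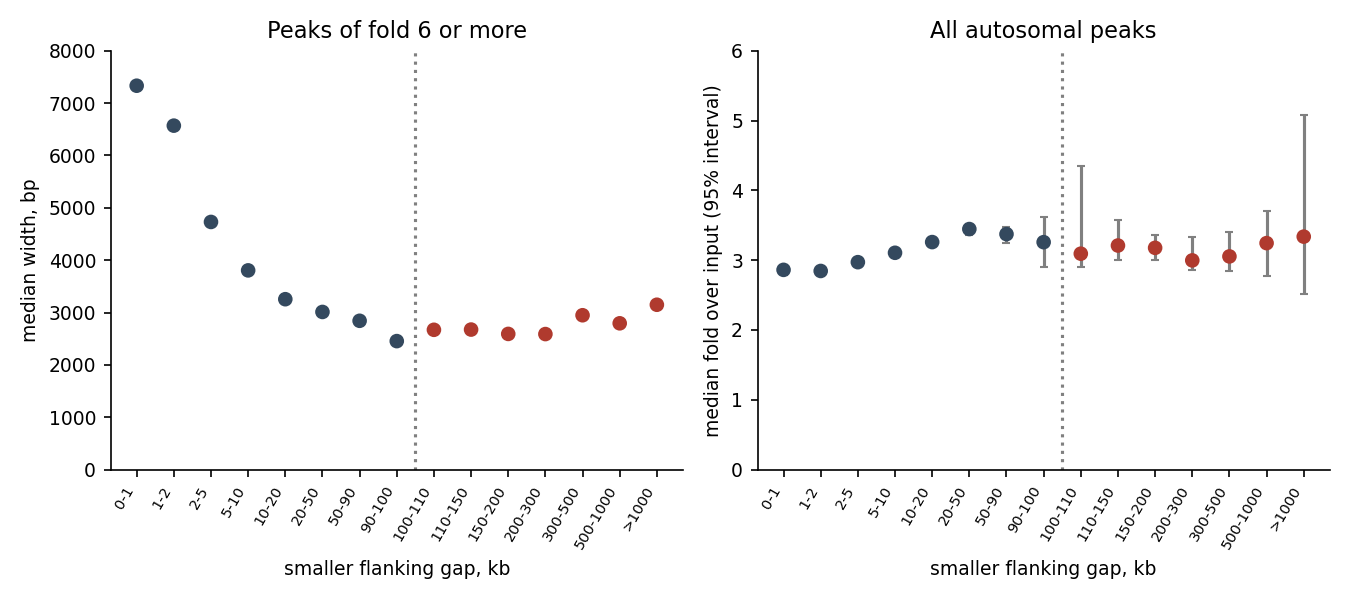
Median width in bp of peaks of fold 6 or more (left) and median fold over input of all autosomal peaks with its 95% interval (right), by the smaller of the gaps beside the peak in kb. The dotted line marks the 100 kb threshold, with isolated peaks to its right; width drops from 7332 bp at the shortest gaps to 2842 bp at 50 to 90 kb and then stays between 2454 and 3148.5 bp, while median fold stays between 2.85 and 3.45.

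Gaps above the threshold were few among all gaps but covered most of the autosomes. Of 50671 gaps between autosomal peaks, 4938, or 9.75%, exceeded 100 kb, and together they covered 1783 Mb or 61.9% of autosomal length, unsequenced parts included. The smaller gap of an isolated peak had a median of 158 kb (quartiles 123 and 249 kb) and the larger one a median of 380 kb (quartiles 212 and 779 kb). For 44.5% of isolated peaks the smaller gap was at most 150 kb. A smaller gap above 500 kb was found for 114 isolated peaks and above 1 Mb for 21. Of the isolated peaks, 745 (55.4%) stood in 297 runs of 2 or more and 600 stood alone. These counts describe the gaps used by the rule, since neighbours share a gap, and nothing is read from them. The 1794 neighbours that were not isolated had a median fold of 3.20 and a median width of 1562.5 bp.

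The chromosomes contributed unequally. Chromosome 4 had the highest share of its peaks isolated, 120 of 2374 or 5.05% (4.24 to 6.01), followed by chromosome 13 with 4.38% (3.45 to 5.56) and chromosome 9 with 4.22% (3.45 to 5.14). The lowest shares were on chromosomes 22, with 8 of 1196 or 0.669% (0.339 to 1.31), 19, with 0.674% (0.386 to 1.17), and 17, with 1.09% (0.748 to 1.60). The intervals of the 3 highest overlapped one another, as did those of the 3 lowest, and the former lay above the latter. Other chromosomes overlapped the 3 highest too, for example chromosome 8 with 3.92% (3.16 to 4.85). Chromosome 4 held 8.92% of isolated and 4.57% of remaining peaks, and chromosome 13 held 4.76% and 2.83%. Chromosome 19 held 0.892% of isolated and 3.58% of remaining peaks, and chromosome 1, the largest contributor to the remaining peaks with 10.2%, held 8.03% of the isolated ones. The share followed peak density, from which it is not independent: over the 22 autosomes the rank correlation of isolated share with peaks per Mb was -0.86. Peaks per Mb were taken over full chromosome length, unsequenced parts included, so these densities are not strictly comparable between chromosomes. By this measure chromosome 21, with 13.0 peaks per Mb, had a share of 2.55% (1.58 to 4.10). Chromosome 4, with 12.4, had 5.05%.

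**Figure D4:**
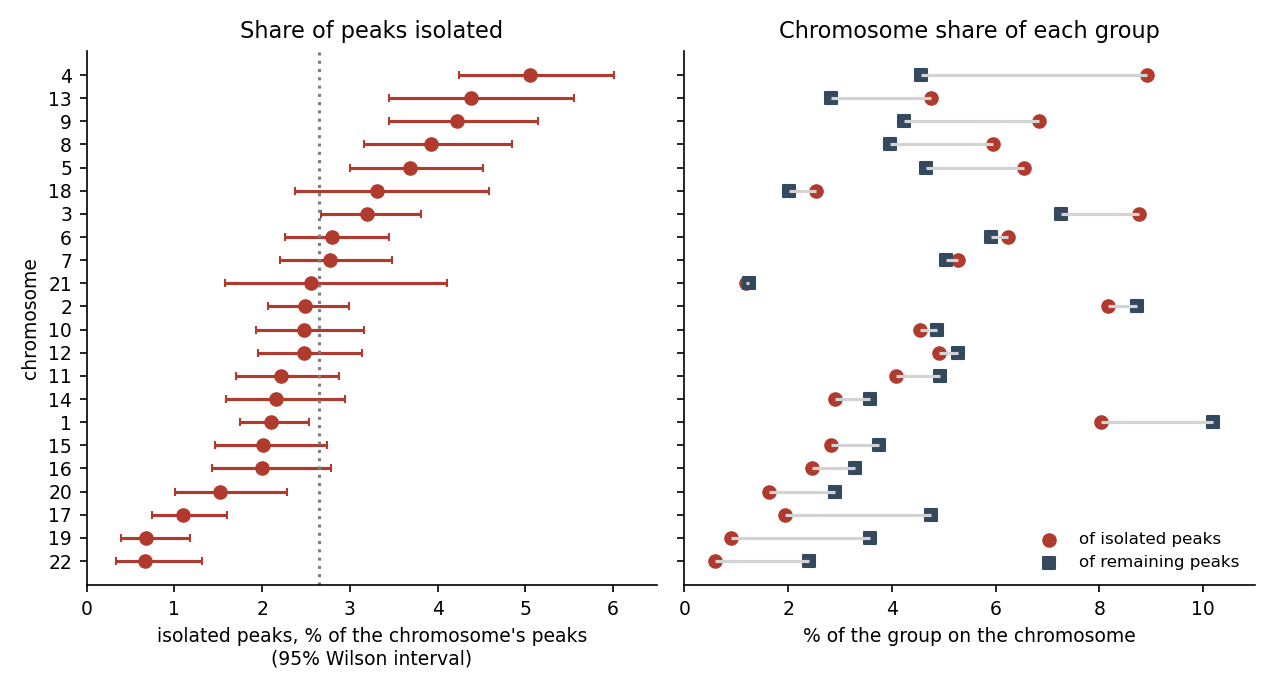
Left, isolated peaks as a percentage of the peaks of each autosome with 95% Wilson intervals, the dotted line marking the share over all autosomes (2.65%). Right, the percentage of all isolated peaks (circles) and of all remaining peaks (squares) that lie on each autosome; chromosomes 4, 13 and 9 hold more of the isolated than of the remaining peaks, and chromosomes 17, 19 and 22 hold less.

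Within chromosomes the contrast in width was repeated. Isolated peaks had the smaller median width on 21 of 22 autosomes, chromosome 20 being the exception with 1830.5 bp against 1719 bp over 22 isolated peaks. Their median fold was higher on 17 of 22. The highest median fold of isolated peaks was on chromosome 19, with 6.89 against 5.25 for its remaining peaks, but it rests on 12 peaks. On chromosome 5 the isolated peaks had a median fold of 3.84 against 3.05, and on chromosome 13 the values were 2.80 and 2.82. Fold is a ratio to the input. The median input level on chromosome 5 was 5.10 at isolated and 5.85 at remaining peaks, and on chromosome 13 it was 6.97 and 7.41. Over all autosomes it was 6.13 (5.99 to 6.25) at isolated and 6.43 (6.41 to 6.45) at remaining peaks, and its part in the fold values was not tested.

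Isolated peaks were shifted towards dark bands. As with the chromosomes, these shares are not independent of peak density, which was lower in dark bands. The darkest Giemsa class held 287 of them, 21.3% (19.2 to 23.6), against 7.81% (7.58 to 8.05) of remaining peaks, and negative bands held 37.8% (35.2 to 40.4) against 58.0% (57.6 to 58.5). In the darkest bands 6.93% of peaks were isolated, and in negative bands 1.74%. Per Mb the spread was smaller, with 0.623 isolated peaks in the darkest and 0.416 in negative bands, while all autosomal peaks went from 8.99 to 23.9. Strong isolated peaks were narrow in each class: at a fold of 6 or more the median was 3116 bp in the darkest bands against 4626 bp for remaining peaks, and 2606 bp against 4085.5 bp in negative bands. A fold of at least 6 was found for 13.2% of isolated peaks in the darkest and 23.0% in negative bands. For remaining peaks the shares were 15.04% in the darkest and 25.01% in negative bands. The lower share in the darkest bands was thus found in both groups.

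**Figure D5:**
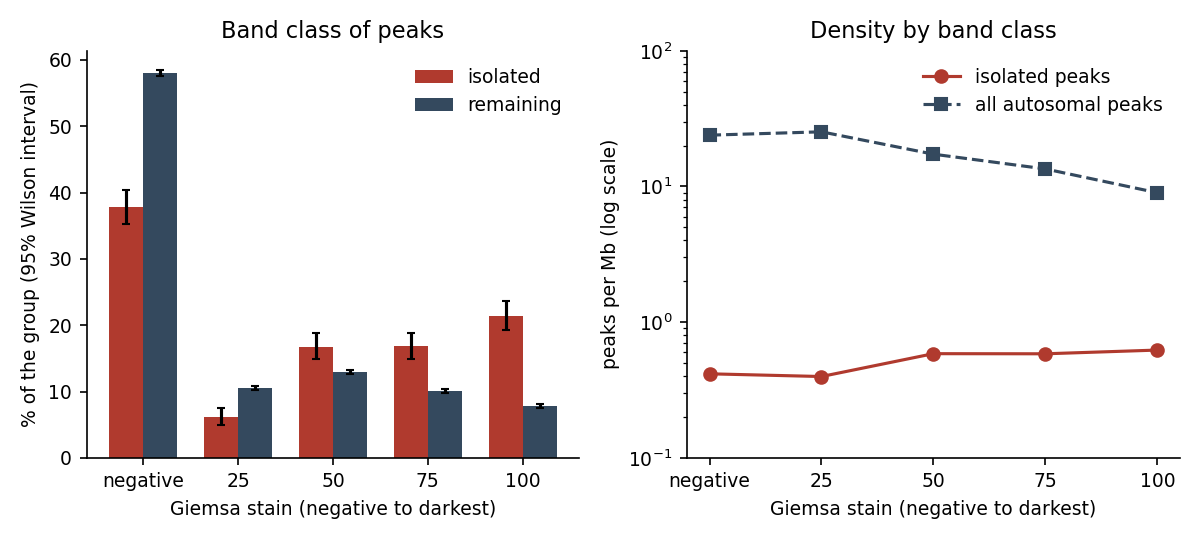
Left, the percentage of isolated and of remaining autosomal peaks in each Giemsa class from negative to darkest, with 95% Wilson intervals. Right, isolated peaks and all autosomal peaks per Mb of each class on a log axis; the density of all peaks falls from 23.9 to 8.99 per Mb between negative and darkest bands, while that of isolated peaks stays between 0.397 and 0.623.

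The strongest isolated peak lay in 4q35.2 (chr4:187110895-187114826), with a fold of 13.9 over 3932 bp and rank 323 among autosomal peaks. Its neighbours were 763 and 392 kb away. Next were peaks in 4q13.3 (chr4:73933183-73936496, fold 13.6), 3q21.3 (chr3:126925609-126947811, fold 13.4), 2q35 (chr2:216175114-216178698, fold 13.2) and 20p13 (chr20:2081689-2085709, fold 13.2). Those in 17p12 (chr17:14329413-14333947, fold 12.9), 19p12 (chr19:20959086-20960129, fold 12.9), 1p22.2 (chr1:91485687-91489290, fold 12.6), at MZT2B (fold 12.5) and in 15q14 (chr15:35836983-35839163, fold 12.0) completed the first 10. Of these 10, 8 were between 2181 and 4535 bp wide. The peak in 19p12 was narrower, with 1044 bp, and that in 3q21.3 was the widest isolated peak of the list.

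The 3q21.3 peak spanned 22203 bp and was the only peak among both the 10 widest and the 10 of highest fold, at ranks 368 by width and 428 by fold among autosomal peaks. The second widest lay in 12q23.3 (chr12:108506472-108522546, 16075 bp, fold 6.98), and then came 3p24.3 (chr3:18932045-18945226, 13182 bp, fold 6.41), 3p21.1 (chr3:54073575-54085366, 11792 bp, fold 7.43) and 9p24.1 (chr9:5177730-5188401, 10672 bp, fold 4.28). The remaining 5 of the 10 widest, between 9554 and 9896 bp, lay in 9p21.1 (fold 6.32), 8p23.2 (9.05), 1p34.3 (5.66), 3q13.31 (6.38) and 11q14.3 (5.43). The peak in 11q14.3 (chr11:91601849-91611402) was also among the 10 with the longest smaller gap, with 1645 kb free to its left and 1316 kb to its right.

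The loneliest peaks by the smaller gap were mixed in strength. The first, in 11p11.12 (chr11:51579495-51579775), had 3427 kb free on the nearer side but was only 281 bp wide with a fold of 1.54, at an input level of 32.1 where the median was 6.13. Next was a peak of 237 bp and fold 2.44 in the centromere band 3p11.1. By contrast, the peak in 7p12.3 (chr7:48016556-48019711) had a fold of 8.70 over 3156 bp with 2207 kb free to the left and 2162 kb to the right. That in 10q21.1 (chr10:58119277-58122417) had a fold of 11.2 over 3141 bp with at least 1310 kb free. Those in 16q21 (chr16:61177963-61182184, 4222 bp), 4q13.1 (chr4:60684064-60684904, 841 bp) and 3p12.1 (chr3:83983188-83984469, 1282 bp) had folds of 4.15, 3.72 and 3.34. The other two, in the pericentromeric bands 2p11.1 and 3q11.2, had folds of 3.59 and 2.52. A flanking gap met a centromere or a variable band for 33 isolated peaks, and without them the median width was 1383.5 bp.

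The longest runs of consecutive isolated peaks numbered 7 peaks each. One spanned 5727 kb next to the centromere of chromosome 9, from 9p13.2 to 9p11.2 (chr9:38392076-44119165), with folds from 2.73 to 9.37 and widths up to 1644 bp. The other spanned 2739 kb within the dark band 13q21.33 (chr13:69126300-71865593), with folds from 2.28 to 3.75. The third, the longest of 3 runs of 6, lay in 5q34 (chr5:165497362-167502381, 2005 kb), with folds from 2.27 to 5.13 and a median width of 2103.5 bp. No peak of the runs in 13q21.33 and 5q34 reached a fold of 6.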

How the data were processed

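H3K27ac ChIP and input DNA of LOUCY cells were sequenced, 1 library each. Bowtie2, MACS2 and hg19 are named in the submitters' processing notes. No alignment settings are stated in them. Per the file headers, the authors called broad peaks with MACS2 2.1.0.20140616, ChIP against input. The headers give a q cutoff of 0.05 and 204 bp fragments. The list also held peaks with a q above that cutoff, the lowest -log10 q being 1.01 for isolated and 1.01 for remaining peaks. The caller kept 1 tag per position, which caps strong peaks and dropped 13.2% of ChIP and 3.07% of input tags. The deposited fold is the ratio of ChIP pileup to local control, and the deposited -log10 p and -log10 q are the caller's values per peak. They served only to describe and rank peaks. The deposited pileup was below 0 throughout and was not used. The members and lists were chosen with earlier results of these data known.

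Gaps ran from the end of one peak to the start of the next. Medians carry binomial order-statistic intervals and shares Wilson intervals, both of 95%. The input level is the control value that gives both the fold (after adding 1 to both sides of the ratio) and the Poisson p of a peak. It is approximate for broad peaks. Bands came from the hg19 table in circlize 0.4.16, by peak midpoint. Gene positions came from the small gene samples in pyranges 0.1.4 (368 autosomal genes, whose build is not stated and was read as hg19 from the haplotype chromosome names) and GenomicFeatures 1.54.1 (38 genes). Of the 406, 144 were on chromosome 1, and 54.7% had a peak within 1 kb of a start site, where 8.33% of autosomal length lay that near. Symbols of 391 matched RefSeq. A full hg19 annotation or genome sequence was not used here, so most peaks carry only a band. Of the marker and gene lists, only S100A9 and ETV6 were in the set, and neither had an isolated peak.

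Named regions are the 10 isolated peaks of highest fold, the 10 widest, the 10 with the longest smaller gap, the 3 longest runs (a tie broken by span), the 3 highest and 3 lowest autosomes, and isolated peaks at genes of the set. Alternatives changed the gap, the peaks kept, chromosome ends and the start site window. The isolation rule and the solving of input levels were tested on simulated data. The simulated p-values came from the same Poisson formula, so the approximation for broad peaks was not tested. The highest input levels named here lie above the simulated range. Computation used scipy 1.17.1, matplotlib 3.10.9, pandas 2.3.3 and numpy 2.4.6 under Python 3.11.15.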

Additional observations from a re-analysis of the deposited data

How the results depend on the processing

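The narrower width of isolated peaks was found under each alternative run: the ratio of median widths went from 0.790 to 0.857 over the alternatives that changed the gap or the peaks kept, and from 0.805 to 0.829 when each autosome was left out in turn. With a gap above 50000 bp there were 3723 isolated peaks, 16.2% of them in the darkest bands, and chromosome 4 led with 11.4% of its peaks isolated. Above 200000 bp the values were 470, 28.9% and 1.90%. Dropping weak peaks before measuring gaps changed which peaks were isolated. Keeping a -log10 q of 5 or more gave 1828, of which 669 were isolated in the full list, with a median width of 2566 bp, a median fold of 5.34, 18.2% in the darkest bands and a highest share of 11.7%, now on chromosome 5. At 10 or more there were 2131 (3191 bp, fold 6.55, 14.9%, and 18.9% on chromosome 5), and at a fold of at least 4 there were 2152 (3198 bp, fold 6.48, 15.4%, and 19.1% on chromosome 4). The median fold of isolated peaks, above that of the others in the full list, was below it in these lists, for example 5.34 against 5.79 in the first. The width ratio at a fold of 6 or more, examined after seeing the data, was 0.640 in the full list and 0.728, 0.799 and 0.819 in the reduced ones. Leaving out each autosome in turn gave median widths from 1353 to 1392 bp and folds from 3.13 to 3.21. The count at start sites was 4 with the wider window and with only the furthest 5′ start, and it was not recomputed without single autosomes. No paired analysis was possible because each group had only 1 library.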

Other observations

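Isolated peaks were spread over 539 of the 766 autosomal bands that held a peak. The following bands were picked after their values were seen. The band 1p31.1 held the most, 12 of its 157 peaks, with a median fold of 2.65. In 13q21.33, 7 of 11 peaks were isolated, or 63.6%, and in 13q31.3 9 of 19, or 47.4%, with median folds of 2.43 and 2.52. The band 3p14.2, which holds the fragile FHIT gene, had 9 of its 87 peaks isolated, or 10.3%, with a highest fold of 4.11. In the neighbouring bands of distal 4q the picture was unlike. The band 4q35.1 had 8 of 52 peaks isolated (15.4%), of which 5 had a fold of at least 6, with a median of 6.21. The band 4q35.2 had 8 of 30 isolated (26.7%), with a median of 2.67 but also the strongest isolated peak of the list. Of all autosomal peaks, 2.65% were isolated and 23.1% had a fold of at least 6. The other peaks of 4q35.1 were not compared in fold.

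In the variable-staining bands 19p12 and 19q12, 6 peaks were isolated, and 5 of them had folds from 7.43 to 12.9 at widths from 1044 to 5780 bp. The 92 remaining peaks in variable bands of all autosomes were strong too, with a median fold of 5.58 and 45.7% at 6 or more. The band 19p12 is known for its clusters of zinc finger genes. Of the isolated peaks in centromere bands, 9 in all, 3 had a fold of at least 6, the highest being 9.86 in 12p11.1. That share was 33.3%, beside 23.6% of the 174 remaining peaks in such bands. The peak in 6p11.1 had the lowest fold of all isolated peaks, 1.20, over 2597 bp, at an input level of 310 where the median was 6.13. An input level below 5 was found at 25.4% of isolated and 22.6% of remaining peaks. Among isolated peaks it was found at 39 on chromosome 5 (44.3%) and 37 on chromosome 6 (44.0%). The remaining peaks of these chromosomes were not counted.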
